A study of Mus musculus with 3 samples.

Results

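The 10 genes described here set the pace of the G1 phase of the cell cycle: the D-type cyclin genes Ccnd1, Ccnd2 and Ccnd3, the kinase genes Cdk4 and Cdk6, the CDK inhibitor genes Cdkn1a (p21), Cdkn1b (p27) and Cdkn2c (p18), the retinoblastoma gene Rb1 and the transcription factor gene E2f1. They were chosen by name and all 10 were found among the 55536 genes of the deposited tables. Polyadenylated RNA of bone-marrow-derived macrophages from C57BL/6J mice, which are macrophages grown out of marrow progenitors in culture, had been sequenced in 3 libraries, biological replicates 1, 2 and 3. The labels of all 3 give lipid A, the membrane anchor of bacterial lipopolysaccharide and a ligand of TLR4, at 100 ng/ml for 0 minutes, so that they form 1 group with no other condition to set against it. No genetic change is named in the labels, age and sex were not collected, and the growth factor of the cultures is not given in the sources used here. The 3 biosamples carry 1 donor record, and nothing in the labels says whether the cultures came from separate animals. The spread between libraries may therefore be partly technical.

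In G1, mitogens raise the D-type cyclins, which bind and activate CDK4 and CDK6, and these kinases phosphorylate the retinoblastoma protein so that E2F1 is released to switch on cyclin E and the genes of DNA replication. INK4 inhibitors such as p18 bind CDK4 and CDK6 and keep the cyclin out, while p21 and p27 bind whole cyclin-CDK complexes and block CDK2. Macrophages are a classic setting for this switch: D-type cyclins were isolated from mouse macrophages as genes induced by the growth factor CSF1, and cultured macrophages divide or rest according to its supply.

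The libraries held 27946070, 29779410 and 53447437 expected counts in replicates 1, 2 and 3, which are read counts estimated by sharing ambiguous reads among transcripts, and a count of 0 allows up to 0.107, 0.101 and 0.0561 CPM (counts per 1000000 counts). The libraries differed in ways the labels do not explain. An rRNA gene, CT010467.1, took 9.75% of counts in replicate 1 against 1.88% and 2.50%, and mitochondrial genes took 6.98% in replicate 3 against 1.84% and 2.24%. The levels given below are TPM (abundance divided by transcript length and scaled to the same sum in each library), of which nuclear protein-coding genes made up 79.8%, 86.1% and 70.8%. All 8 macrophage markers were present in every library (Csf1r, the CSF1 receptor, at 591, 1279 and 806 TPM), with mean levels from Mertk at the bottom to Lyz2 at the top. Progenitor, lymphoid, stromal and red-cell or platelet lists, led by Kit, Cd79b, Kdr and Gp1ba and with Hoxa9, Pax5, Pdgfra and Hba-a1 lowest, each summed to 12.6 TPM or less. By contrast, 4 of 10 neutrophil markers reached 1 TPM in all 3 libraries, and the 10 summed to 173, 37.8 and 339 TPM, with Ly6g at 0 counts. In bulk RNA, fewer cells of a type and less RNA per cell cannot be told apart.

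Of the 10 genes, 9 reached 1 TPM in all 3 libraries, and Ccnd2 was the exception. By mean TPM the order was Cdkn1a, Ccnd1, Cdk4, Rb1, Cdkn1b, Cdk6, Ccnd3, E2f1, Cdkn2c and Ccnd2, from 200 ± 69.2 to 2.17 ± 1.98 TPM (SD, n = 3). Only 2 of the 9 steps in that order separated genes whose ranges over the libraries did not overlap, namely Cdk4 above Rb1 and Cdkn2c above Ccnd2. The other 7 neighbours overlapped, so that between Rb1 and Cdkn2c no neighbour can be placed above the next. For Ccnd1 the mean of 144 ± 202 TPM describes no library: its SD exceeded its mean. Without replicate 1 the mean of Ccnd1 was 27.6 TPM, which placed it below Cdk4, Rb1 and Cdkn1b, and the means of Ccnd2 and Cdk6 were 1.06 and 14.5 TPM.

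**Figure D1:**
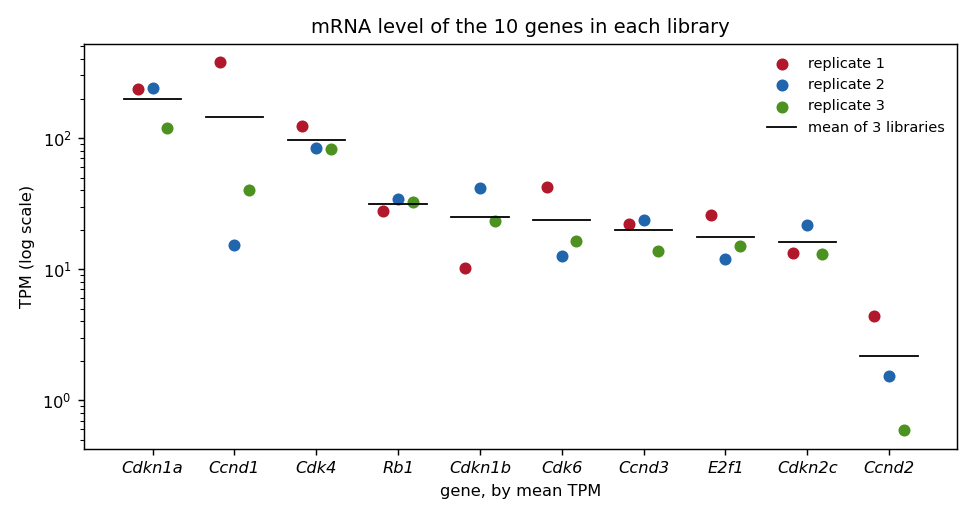
TPM of each of the 10 genes (log scale) in replicates 1, 2 and 3 (points), with the mean of the 3 libraries (line) and the genes ordered by it. Ccnd1 runs from 15.2 to 377 TPM while Rb1 stays between 27.7 and 34.2 TPM.

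Among the D-type cyclins, Ccnd1 (cyclin D1; mm10 chr7:144929931-144939925, minus strand) was at 377 TPM in replicate 1, 15.2 TPM in replicate 2 and 39.9 TPM in replicate 3. Replicate 1 stood far above the others, and replicate 3 in turn lay above replicate 2. After scaling by TMM, which sets the bulk of genes equal between libraries, the highest and the lowest library were 25.7-fold apart (95% counting interval 24.2 to 27.4, which covers the error of counting alone, as PCR copies cannot be told from separate molecules). Only 12 of the 11886 genes tested (0.101%) spanned as wide a range, Ccnd1 included. The quasi-likelihood test of edgeR asked whether a gene varied more between libraries than genes of like abundance. Its expected quasi-dispersion (a measure of spread) was fitted to these same genes. Ccnd1 stood at 26.0 times that value in this test (unadjusted p = 0.00176, adjusted p = 0.970). That test called 0 of 11886 genes (0%) and 0 of the 10, with 545 genes at an unadjusted p under 0.05. A gene that was not called is not thereby shown to be stable. DESeq2 marked 9 of the 11886 genes as dispersion outliers, and Ccnd1 was the 1 gene of the 10 among them. With no filter on low counts edgeR called 146 of 21603 genes, Ccnd1 again the 1 of the 10. The common biological coefficient of variation between libraries was 0.398.

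Ccnd2 (cyclin D2; chr6:127125162-127152193, minus strand) was the least abundant, at 4.39, 1.52 and 0.59 TPM in replicates 1, 2 and 3. It rested on 490, 151 and 130 counts, well above the floor. Replicate 1 was highest as for Ccnd1, but replicate 3 and not replicate 2 was lowest, and the range was 6.40-fold (counting interval 5.28 to 7.86; edgeR adjusted p = 0.970). Ccnd3 (cyclin D3; chr17:47505051-47599691, plus strand), the D-type cyclin best known from lymphoid and erythroid cells, was at 22.1, 23.6 and 13.8 TPM. Its libraries lay within 1.91-fold of each other (edgeR adjusted p = 0.980), with replicate 3 lowest, and 40.5% of all genes tested had a range at least as wide.

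Which D-type cyclin mRNA predominated therefore differed between libraries. Ccnd1 made up 93.4% of the D-type cyclin TPM in replicate 1, 37.6% in replicate 2 and 73.5% in replicate 3. The share of Ccnd3 was 5.47%, 58.6% and 25.4%, so that Ccnd3 was the main D-type cyclin mRNA in replicate 2. Ccnd2 stayed at 1.09%, 3.77% and 1.09%. Shares within a library do not depend on how libraries are scaled to each other, and the kallisto-format tables, a second estimate from the same reads, gave Ccnd1 93.3%, 38.5% and 72.9%. Summed, the 3 cyclins came to 404, 40.3 and 54.3 TPM, with replicates 2 and 3 close together and replicate 1 far above both.

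**Figure D2:**
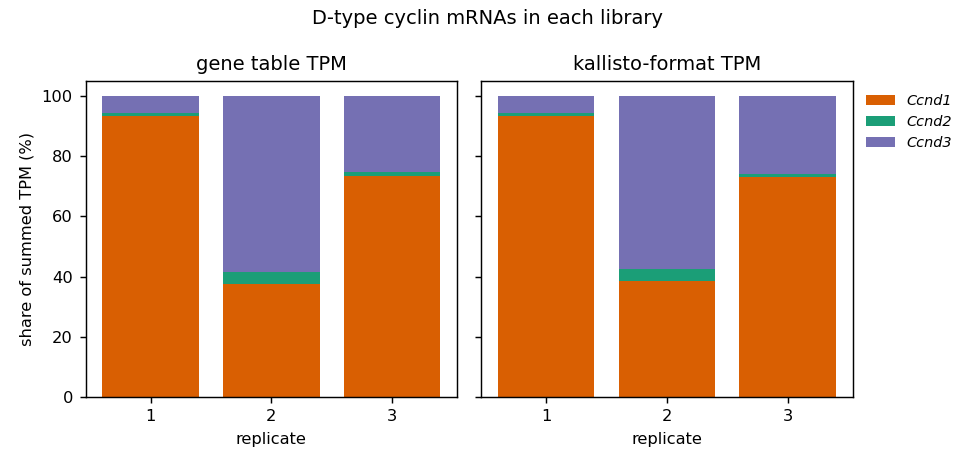
Share of each D-type cyclin gene in their summed TPM (percent, stacked bars) in replicates 1, 2 and 3, from the gene tables (left) and the kallisto-format tables (right). Ccnd1 fills 93.4% of the bar in replicate 1, and Ccnd3 58.6% in replicate 2, by the gene tables.

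Of the kinases that these cyclins activate, Cdk4 (chr10:127063534-127067920, plus strand) was at 123, 84.2 and 82.8 TPM in replicates 1, 2 and 3. Replicate 1 was highest and the 3 libraries were within 1.61-fold after TMM scaling (edgeR adjusted p = 0.988). Cdk6 (chr5:3341485-3531008, plus strand), a kinase tied to blood cell lineages, was at 42.0, 12.6 and 16.4 TPM. Replicate 1 again stood apart, with replicates 2 and 3 near each other, and the range was 2.78-fold (counting interval 2.65 to 2.91; edgeR adjusted p = 0.970). Cdk4 was the more abundant kinase mRNA in all 3 libraries, by 2.92-fold, 6.66-fold and 5.04-fold, and made up 74.5%, 87.0% and 83.4% of the pair. The ratio of Ccnd1 to Cdk4 TPM, which sets cyclin against partner within a library, was 3.08 in replicate 1 and under 1 in the others, at 0.180 and 0.483. The 2 quantifiers differed for Cdk4 in replicates 1 and 2 more than for the other 9 genes, relative to the median of all genes. Its kallisto-format value was 0.55 and 0.51 higher on the log2 scale than that median in replicates 1 and 2, and 0.10 lower in replicate 3, where Ccnd2 differed most (0.36).

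Promoter windows of RefSeq (GRCm38.p6, the assembly of mm10) were found for 7 of the 10 genes, 10 windows in all, each reaching from upstream of an annotated start to 50 bases past it. Windows were matched for Ccnd3, Cdk4, Cdk6, Cdkn1a, Cdkn1b, Cdkn2c and E2f1, and none for Ccnd1, Ccnd2 and Rb1. The Cdk4 window is shown up to its start site because it held 4 copies of the E-box CACGTG (the same on both strands). MYC with its partner MAX is among the factors that bind these letters. The copies were at positions -172, -118, -98 and -11 from the start. The capitals mark these E-boxes in chr10:127063285-127063534, plus strand.
Cdk4: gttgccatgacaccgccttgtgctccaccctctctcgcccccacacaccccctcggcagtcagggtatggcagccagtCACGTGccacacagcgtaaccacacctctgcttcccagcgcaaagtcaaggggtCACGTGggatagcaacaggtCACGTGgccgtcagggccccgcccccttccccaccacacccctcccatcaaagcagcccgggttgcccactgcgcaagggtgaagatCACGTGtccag
At least 4 E-boxes occurred in 8 of 32841 windows of the same length (0.0244%) and at least 1 in 7.15%. Cdk6 held 1 E-box, at -220, and Cdkn2c 1, at 34 bases after its downstream start. Myc itself was at 34.7, 1.92 and 6.91 TPM in replicates 1, 2 and 3, an 18.1-fold range beside the 1.61-fold range of Cdk4. Whether MYC or any other factor acted on Cdk4 here was not tested, since a match of letters is a description only.

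Cdkn1a (p21; chr17:29090976-29100727, plus strand), a broad CDK inhibitor and a classic target of p53, had the highest mean of the 10, at 238, 242 and 120 TPM. Replicates 1 and 2 were close and replicate 3 was lower, and the range was 1.56-fold after TMM scaling and 2.01-fold on TPM (edgeR adjusted p = 0.991). Cdkn1b (p27; chr6:134920401-134925513, plus strand), the inhibitor that accumulates in resting cells, was at 10.1, 41.5 and 23.2 TPM. Here replicate 1 was lowest and replicate 2 highest, the reverse of Ccnd1. The range was 4.34-fold (counting interval 3.92 to 4.82; edgeR adjusted p = 0.970), and 6.46% of all genes tested had one as wide. Cdkn2c (p18; chr4:109660876-109667189, minus strand) was at 13.4, 21.6 and 13.1 TPM. Its TMM-scaled range of 1.20-fold was the narrowest of the 10 (edgeR adjusted p = 0.998). On TPM its range was 1.64-fold, and that of Rb1 was the narrowest at 1.24-fold.

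Within the 3 inhibitors, Cdkn1a made up 91.0%, 79.3% and 76.8% of the TPM, and Cdkn1b 3.87%, 13.6% and 14.8%. Set against each other within a library, Ccnd1 exceeded Cdkn1b 37.3-fold in replicate 1, was at 0.366 of it in replicate 2 and exceeded it 1.72-fold in replicate 3. The ratio of Cdkn1a to Ccnd1 was 0.631, 15.9 and 3.01, so that cyclin D1 mRNA was above p21 mRNA in replicate 1 only. Among the other CDK inhibitors, Cdkn1c (p57) was at 13.1, 29.0 and 64.7 TPM, also lowest in replicate 1, with a 4.53-fold range, and Cdkn2d (p19) at 7.67, 10.6 and 4.21 TPM. The INK4 genes Cdkn2a and Cdkn2b, known from senescent cells, were at or under 1.17 and 1.05 TPM in every library. Cdkn3 was at 2.95, 1.03 and 4.59 TPM. Of these 5 genes Cdkn1c and Cdkn2d, 2 in all, passed the filter on low counts.

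The windows of both RefSeq starts of Cdkn1a are shown because transcripts begin at each of them. In the window upstream of the distal start, chr17:29090729-29090978 (plus strand), capitals mark 2 p53 half-sites, which match the consensus of the p53 half-site at -73 and -51. In the window upstream of the proximal start, chr17:29093519-29093768 (plus strand), capitals mark 2 GC boxes, GGGCGG on either strand, at -104 and -46.
Cdkn1a distal: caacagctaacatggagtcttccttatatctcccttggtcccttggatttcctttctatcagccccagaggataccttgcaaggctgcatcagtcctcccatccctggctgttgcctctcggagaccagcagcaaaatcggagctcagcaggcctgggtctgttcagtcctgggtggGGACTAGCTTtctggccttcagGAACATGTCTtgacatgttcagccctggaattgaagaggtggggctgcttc
Cdkn1a proximal: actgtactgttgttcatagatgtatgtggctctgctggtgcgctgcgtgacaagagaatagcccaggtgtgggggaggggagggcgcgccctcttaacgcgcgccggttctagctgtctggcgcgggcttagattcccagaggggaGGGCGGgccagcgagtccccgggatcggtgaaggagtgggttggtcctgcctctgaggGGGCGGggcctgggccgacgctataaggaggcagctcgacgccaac
At least 2 half-sites occurred in 118 of the 32841 windows (0.359%) and at least 1 in 8.36%, and at least 2 GC boxes in 19.5%. The transcript from the proximal start, Cdkn1a-201, carried 96.7%, 92.7% and 99.0% of the gene's TPM in replicates 1, 2 and 3. Cdkn1a-202, from the distal start, carried 2.15%, 4.86% and 0.342%, which is 5.11, 11.7 and 0.41 TPM, and both encode the same length of 159 residues. A form from a start further downstream, Cdkn1a-203, was at 1.49, 4.92 and 0.32 TPM. Replicate 3 had the least of the distal form. AC167363.2, an unclassified gene on the opposite strand that overlaps Cdkn1a by 1046 bases, was at 1.68, 3.44 and 0.26 TPM in the same order of libraries. Whether counting used strand is not given in the sources used here, so reads of overlapping genes on opposite strands cannot be told apart.

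Rb1 (chr14:73183673-73325822, minus strand), which holds E2F in check, was at 27.7, 34.2 and 32.7 TPM. The libraries lay close together, with an SD of 3.43 TPM around a mean of 31.5 and a TMM-scaled range of 1.52-fold (edgeR adjusted p = 0.997). E2f1 (chr2:154559407-154569892, minus strand) was at 26.0, 11.9 and 15.0 TPM. Replicate 1 was highest and replicate 2 lowest, as for Ccnd1, but by 2.21-fold (counting interval 2.00 to 2.44; edgeR adjusted p = 0.973), a range that 29.4% of all genes tested matched or exceeded. E2f1 thus stood at 0.939 of Rb1 in replicate 1 and at 0.347 and 0.459 of it in replicates 2 and 3.

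Across the 10 genes, 5 spanned 2-fold or more between the highest and the lowest library (Ccnd1, Ccnd2, Cdkn1b, Cdk6 and E2f1), where 36.9% of all genes tested did. At 4-fold or more there were 3 of the 10 (Ccnd1, Ccnd2 and Cdkn1b), against 7.71% of all genes. Without replicate 1, 1 of the 10 spanned 2-fold, Ccnd1 at 3.40-fold. Without replicate 2 there were 3, with Ccnd1 at 7.58-fold, and without replicate 3 there were 5. A range over 2 libraries cannot exceed the range over all 3, and no share of all genes is given for 2 libraries. These counts are therefore a description only. Replicate 1 was the highest library for 6 of the 10 (34.7% of all genes), replicate 2 for 3 (32.3%) and replicate 3 for 1 (33%). Replicate 1 was lowest for 2 (34.5% of all genes), replicate 2 for 3 (32.9%) and replicate 3 for 5 (32.7%). On TPM in place of TMM-scaled counts, 5 of the 10 were highest in replicate 1, 5 in replicate 2 and 0 in replicate 3, as Cdkn1a and Rb1 then had replicate 2 highest. The shares of all genes above are for TMM-scaled counts, and none is given on TPM. Nuclear protein-coding genes as a whole took 79.8%, 86.1% and 70.8% of TPM, most in replicate 2 and least in replicate 3. The log2 ratio of replicate 1 to the mean of the other libraries ran from 3.80 for Ccnd1, 2.24 for Ccnd2 and 1.03 for Cdk6 through 0.80 for E2f1, 0.59 for Cdk4, 0.42 for Ccnd3 and 0.34 for Cdkn1a. It was -0.10 for Cdkn2c, -0.44 for Rb1 and -1.82 for Cdkn1b. All 6 genes that promote the step into S phase (the cyclins, kinases and E2f1) were thus above 0, and of the 4 that restrain it 3 were below, with Cdkn1a the exception. The same 6 and 3 were counted on TMM, DESeq2 size factors, kallisto-format counts, unfiltered counts and TPM. These settings treat the same 3 libraries in other ways and are not separate support. The median of the 10 was 0.50, against 0.00 for all genes tested. With that median either sign is common among all genes, and Cdkn2c lay close to 0, so the signs are a description only.

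**Figure D3:**
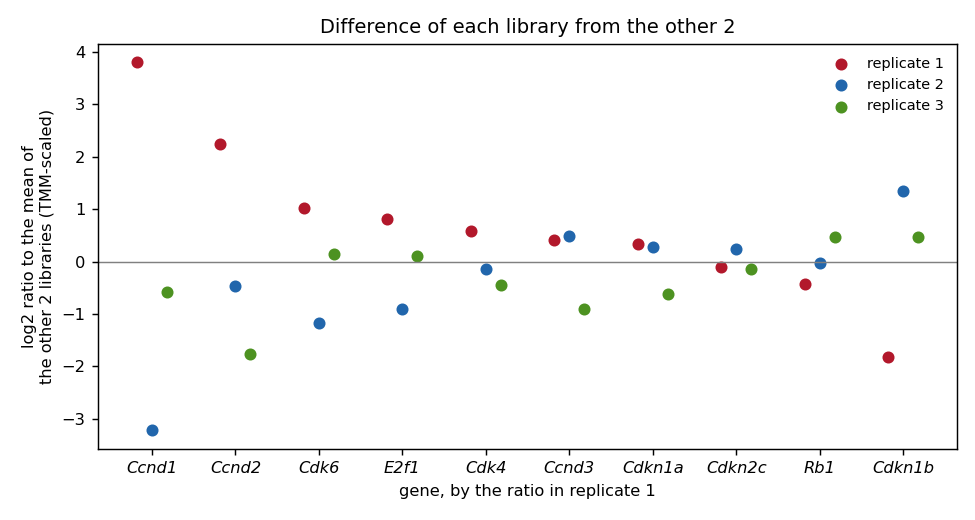
Log2 ratio of each library to the mean of the other libraries (TMM-scaled counts) for the 10 genes, ordered by the ratio in replicate 1. Replicate 1 is at 3.80 for Ccnd1 and at -1.82 for Cdkn1b.

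The lists of linked genes were read the same way, by the log2 ratio of replicate 1 to the other libraries. The counts below stand beside these shares of all genes tested. Replicates 1, 2 and 3 were highest for 34.7%, 32.3% and 33%, and lowest for 34.5%, 32.9% and 32.7%. A range of 2-fold or more was found for 36.9%, and of 4-fold or more for 7.71%. Of the partners in the next step, cyclin E and CDK2, 6 of the 9 tested were highest in replicate 1 (median 0.64) and 3 spanned 4-fold or more. Ccne1 was at 11.1, 2.22 and 3.86 TPM, Ccne2 at 14.6, 0.98 and 4.29 TPM, and the CDK subunit gene Cks1b at 21.5, 5.11 and 9.20 TPM. These cyclin E levels were ordered as those of Ccnd1, with replicate 1 highest and replicate 2 lowest, and Cdk2 (23.1, 19.2 and 9.12 TPM) was not. Skp1a, of the ubiquitin ligase that removes p27, was the most abundant of that list at a mean of 109 TPM. The CDK-activating kinase genes Cdk7, Ccnh and Mnat1 all stayed within 2-fold, with Ccnh the highest at a mean of 19.8 TPM and Mnat1 the lowest at 9.23 TPM.

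Of the other pocket protein, E2F and DP genes, 10 of 11 were highest in replicate 1 (median 0.87), 7 spanned 2-fold and 2 spanned 4-fold. These were the atypical repressors E2f7 (2.53, 0.18 and 0.87 TPM) and E2f8 (6.96, 1.60 and 4.21 TPM). The exception was Rbl2 (p130), the pocket protein of resting cells, at 16.5, 26.4 and 57.2 TPM, while its relative Rbl1 (p107) was at 20.3, 13.7 and 7.19 TPM. Tfdp1, the E2F partner, had the highest mean of the list, 35.1 TPM.

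The targets of E2F in DNA replication had the widest spread of the 9 linked lists, with a median range of 7.19-fold. All 18 were highest in replicate 1, 16 were lowest in replicate 2, all 18 spanned 2-fold and 16 spanned 4-fold, with a median of 2.35. Pcna, the sliding clamp of the replication fork, was at 725, 178 and 325 TPM. Mcm2, of the replicative helicase, was at 66.3, 6.28 and 15.2 TPM, and Uhrf1, which maintains DNA methylation, at 44.9, 1.95 and 8.83 TPM. Also past 4-fold were Mcm3, Mcm4, Mcm5, Mcm6, Mcm7, Cdc6, Cdt1, Rrm1, Rrm2, Tyms, Tk1 and Chaf1a, and Gins2 and Slbp were not past it. E2f1 itself, at 2.21-fold, varied less than 17 of these 18 genes. The 14 mitosis genes differed in pattern: 13 were lowest in replicate 2, but 9 were highest in replicate 1 and 5 in replicate 3, with median ratios of 1.21 for replicate 1 and 0.95 for replicate 3. Cdk1, the mitotic kinase, was at 86.7, 20.1 and 37.9 TPM, and Plk1 at 3.85, 0.58 and 7.29 TPM. Cdc20 had the lowest mean, 1.77 TPM, and Mki67, Top2a, Ccna2, Ccnb2, Birc5, Bub1, Kif11 and Foxm1 made up the 10 past 4-fold with Plk1 and Cdc20. Summed cyclin A2 and B mRNA was 21.6, 3.25 and 20.0 TPM, near the same in replicates 1 and 3, where D-type cyclins differed from 404 to 54.3 TPM.

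Genes induced by ERK and growth factors were included because this pathway is known to drive Ccnd1. Of 15, 12 were tested, 10 were highest in replicate 1, all 12 spanned 2-fold and 9 spanned 4-fold (median 2.18). The phosphatase gene Dusp6 was at 113, 4.99 and 3.39 TPM, the ETS factor gene Etv5 at 80.0, 5.40 and 7.03 TPM and Spred2, an inhibitor of the pathway, at 19.7, 2.35 and 2.99 TPM. The others past 4-fold were Dusp4, Dusp5, Spry2, Myc, Phlda1 and Ets2, and Spry4 was the lowest of the list at 0.06 TPM or less. Replicate 2 held the smallest TMM-scaled value for 8 of these 12 genes, Etv5, Spred2 and Myc included, as it did for Ccnd1. The smallest value lay in replicate 3 for 3 genes, Dusp6 among them, and in replicate 1 for 1. Ier3 (29.0, 51.8 and 14.1 TPM) and Egr1 (7.08, 11.2 and 15.4 TPM) were not highest in replicate 1. For the p53 list, tied to Cdkn1a, 8 of the 15 tested were highest in replicate 2 (32.3% of all genes tested). Of the 15, 10 spanned 2-fold (36.9% of all genes), and the median was -0.28. The 5 past 4-fold were Bbc3, Phlda3, Trp53inp1, Btg2 and Fas, and Eda2r was lowest at 0.10 TPM or less. Trp53 was at 46.7, 44.2 and 22.3 TPM and Bax, a death effector, at 190, 207 and 50.2 TPM, both lowest in replicate 3 as Cdkn1a was. The list as a whole did not share that order: 6, 4 and 5 of the 15 were lowest in replicates 1, 2 and 3. Replicate 3 was lowest for 32.7% of all genes tested. Gadd45a went the other way, at 69.2, 154 and 200 TPM. Mdm2, which degrades p53, was at 76.5, 58.2 and 57.7 TPM, and Btg2 at 3.05, 18.1 and 4.12 TPM. For the FoxO list, tied to Cdkn1b, 5 of 6 were lowest in replicate 1 (34.5% of all genes tested). Of the 6, 4 were highest in replicate 2 (32.3% of all genes), and the median was -0.69. Mean levels ran from 2.80 TPM for Foxo1 to 24.4 TPM for Foxo3. Pik3ip1, an inhibitor of PI3 kinase, was at 1.10, 11.9 and 7.36 TPM and Ccng2, a cyclin-like gene of resting cells, at 5.52, 24.2 and 7.03 TPM, beside 10.1, 41.5 and 23.2 TPM for Cdkn1b.

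**Figure D4:**
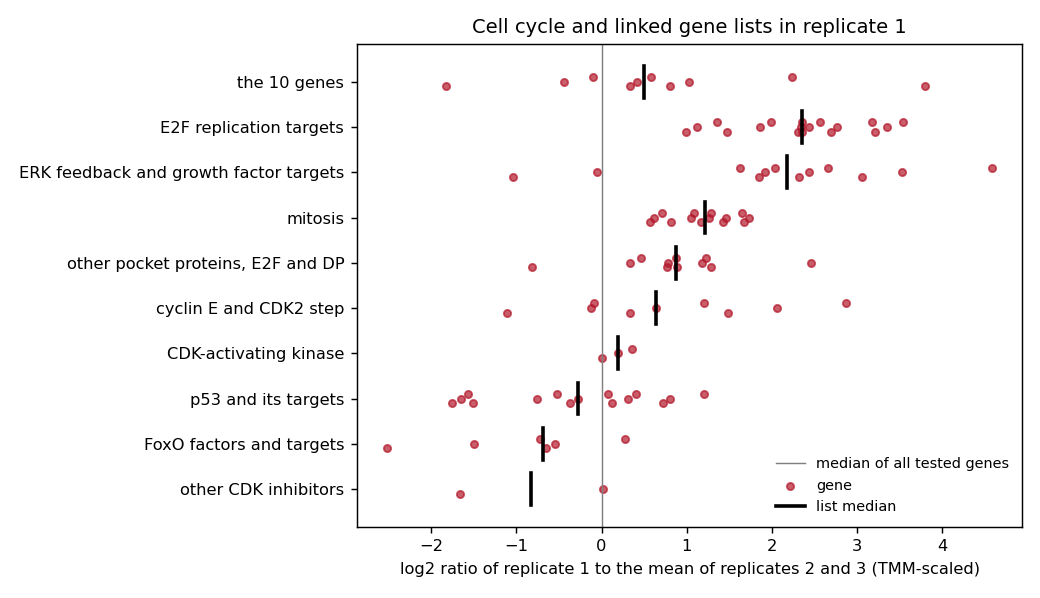
Log2 ratio of replicate 1 to the mean of replicates 2 and 3 (TMM-scaled) for each tested gene (points) of the 10 genes and 9 linked lists, with list medians (bars) and the median of all tested genes (line). E2F replication targets lie at a median of 2.35 and FoxO factors and targets at -0.69.

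The neutrophil markers, by contrast, were highest in replicate 3 and lowest in replicate 2 for all 4 tested (S100a8, S100a9, Ngp and Ltf), with S100a9 at 86.9, 20.1 and 183 TPM. On TMM-scaled counts, none of the 10 genes described here shared that order. Among the 14 mitosis genes, 5 did (Mki67, Ccna2, Ccnb2, Plk1 and Birc5). Of all genes tested, 33% were highest in replicate 3 and 32.9% lowest in replicate 2, and no share is given for both together. On TPM, Ccna2 was instead highest in replicate 1, at 12.1, 1.16 and 9.32 TPM in replicates 1, 2 and 3. The part of neutrophils in any level was not tested. The rRNA gene CT010467.1 was highest in replicate 1, as Ccnd1 was, and its part in these differences was likewise not tested.

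For each of the 10, the gene nearest in profile was sought among 66 others (the other members and the listed cell cycle genes) by the Euclidean distance of centred log2 values over the 3 libraries, as a description only. Ccnd1 lay nearest to Cdc6, the loader of the replicative helicase, at a distance of 0.44, and Cdc6 was at 10.8, 0.59 and 1.64 TPM. Ccnd2 lay nearest to Cdt1 (0.41), Ccnd3 to Cdkn1a (0.24), Cdk4 to Skp1a (0.22) and Cdk6 to Gins2 (0.08). E2f1 and E2f6 were the closest pair (0.03), at 18.2, 7.98 and 10.3 TPM for E2f6. Cdkn1a lay nearest to Cdk7 (0.15), Cdkn2c to Skp2 (0.21) and Rb1 to its relative Rbl2 (0.31). Cdkn1b was farthest from its nearest among the genes compared, Rbl2 at 1.06, but the p53, FoxO and ERK lists were not part of that search. With 3 libraries, many genes are near each other.

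The transcripts behind the gene values were compared in both tables. Ccnd1 was read almost wholly from Ccnd1-201, which encodes 295 residues, with 99.0%, 96.8% and 99.0% of the gene's TPM. The retained-intron forms Ccnd1-202 (0.199%, 2.50% and 0.426%) and Ccnd1-203 (0.768%, 0.725% and 0.526%) held little. Ccnd2-201 (289 residues) held 99.1%, 80.3% and 91.5%, and the rest in replicate 2 was mostly Ccnd2-204, at 4.14 counts. Ccnd3 differed in form: Ccnd3-205, the full protein of 292 residues, held 96.4% and 88.0% in replicates 1 and 2 but 48.3% in replicate 3. There Ccnd3-208, a short form of 96 residues that starts further downstream, held 43.9% (162 counts), against 0% and 3.21% in replicates 1 and 2. The kallisto-format tables gave Ccnd3-208 at 0%, 6.80% and 56.2%, the same order of libraries.

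E2f1 and Cdkn2c also differed in form between libraries. E2f1-202, which encodes 430 residues, held 63.6% of E2f1 TPM in replicate 1, 18.3% in replicate 2 and 44.1% in replicate 3, and the shorter E2f1-201 (385 residues) held the rest. The level of E2f1-201 was 9.46, 9.69 and 8.40 TPM, so that the higher E2f1 of replicate 1 lay in E2f1-202, at 16.5, 2.17 and 6.64 TPM. By kallisto E2f1-202 held 47.9%, 11.7% and 20.8%, lower in each library but in the same order. For Cdkn2c, the form from the upstream start, Cdkn2c-202, held 43.8%, 16.2% and 22.2%, and Cdkn2c-201 from the downstream start the rest. Both encode 168 residues, so that only the start and the untranslated part differ. Cdkn2c-202 was at 5.86, 3.49 and 2.91 TPM and Cdkn2c-201 at 7.53, 18.1 and 10.2 TPM: replicate 1 was highest for the former and lowest for the latter, while the gene as a whole had a range of 1.64-fold on TPM and 1.20-fold on TMM-scaled counts.

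For the kinases, Cdk6-202 (326 residues) held 71.0%, 86.6% and 98.1%, and the incomplete models Cdk6-203 and Cdk6-205 held 14.8% and 14.1% in replicate 1 against 1.04% and 0.853% in replicate 3. Those shares rested on 50.4 and 18.9 counts in replicate 1, beside 6197 counts for Cdk6-202. Cdk4 was the least certain. Cdk4-201 (303 residues) held 74.9%, 75.1% and 41.4% in the RSEM-format tables but 33.4%, 34.9% and 42.0% in the kallisto-format tables. Retained-intron forms took 16.3%, 18.1% and 37.1% of Cdk4 by RSEM and 33.3%, 36.1% and 36.1% by kallisto, and Cdk4-209, the one of highest mean share, took 5.50%, 0% and 24.4% against 27.4%, 23.2% and 20.4%. The lower Cdk4-201 share of replicate 3 appeared in 1 table and not in the other, where replicate 3 was highest. Cdkn1b split among 3 forms that all encode 197 residues, with Cdkn1b-201 at 60.8%, 59.9% and 59.3% and Cdkn1b-203, second by mean share, at 22.4%, 16.9% and 22.9%. In replicate 2 Cdkn1b-202, at 23.2%, was above it. Rb1-201 (921 residues) held 88.5%, 86.4% and 90.7% by RSEM and 66.8%, 69.7% and 89.4% by kallisto, and the retained-intron form Rb1-204 held 3.29%, 12.0% and 6.54% by RSEM.

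**Figure D5:**
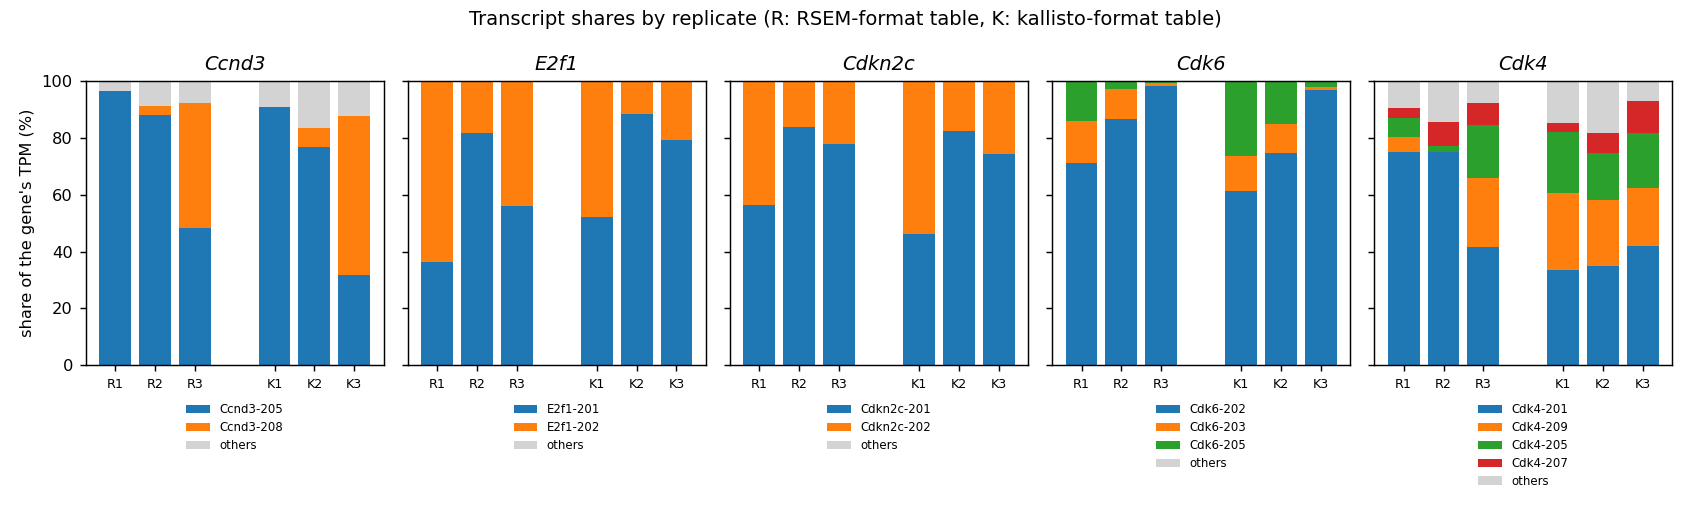
Share of each gene's TPM (percent, stacked bars) by transcript for Ccnd3, E2f1, Cdkn2c, Cdk6 and Cdk4 in replicates 1 to 3, from the RSEM-format (R1 to R3) and the kallisto-format tables (K1 to K3), with all other transcripts in grey. Ccnd3-208 fills 43.9% of R3 and 56.2% of K3, and E2f1-202 fills 63.6% of R1.

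Replicate 3 also stood apart in how the tables related to each other: the median log2 ratio of kallisto-format to RSEM-format gene TPM was -0.41, -0.39 and -0.06 in replicates 1, 2 and 3, over 10485, 10485 and 10465 genes. Its part in the transcript shares of replicate 3 was not tested. Several of the 10 genes overlap genes on the opposite strand: LTO1 overlaps Ccnd1 by 1771 bases (33.7, 29.8 and 30.8 TPM), Tspan31 overlaps Cdk4 by 641 (69.1, 97.7 and 75.1 TPM) and Bysl overlaps Ccnd3 by 361 (11.1, 3.94 and 3.78 TPM). Rb1 shares 24171 bases with Rcbtb2 (174, 240 and 381 TPM) and holds the whole of Lpar6 (22.4, 25.2 and 17.3 TPM). The genes that overlap Ccnd2 and Cdk6 were at 0.82 TPM or less. LTO1 stayed between 29.8 and 33.7 TPM over the libraries in which Ccnd1 ran from 15.2 to 377 TPM. The part of reads from overlapping genes in any of these levels was not tested.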

How the data were processed

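Each of the 3 libraries came with a gene table, an RSEM-format and a kallisto-format transcript table on genome build mm10 and annotation M21, per the deposited file lists. Expected counts, posterior mean counts and their posterior standard deviation were deposited by the authors, per the file headers, as estimates that need not be whole, and were rounded here for the count test. TPM values were deposited by the authors, per the file headers, as abundances divided by effective length and scaled to the same sum in each library. The sources used here name no aligner, program version or strand setting. The 26248 numbered entries (0 counts) and 97 spike-in entries (0.131%, 0.122% and 0.0843% of counts) were left out of library sizes.

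With 1 group there was no contrast. After filterByExpr left 11886 genes, edgeR 4.0.16 (limma 3.58.1, R 4.3.3) fitted an intercept-only quasi-likelihood model, and each gene's quasi-dispersion was tested against the prior by a one-sided F test with Benjamini-Hochberg adjustment at 0.05. Ranges and log2 ratios used TMM-scaled counts with a prior count of 0.5; the adjustment covered all genes tested. Ratio intervals are exact conditional binomial intervals at 95%, for counting error only. Motifs were matched on both strands of RefSeq windows of 300 bases; the p53 half-site by its consensus, and the E2F motif as TTTCCCGC, TTTCGCGC, TTTGCCGC or TTTGGCGC. Named were all 10 genes, of each of 15 lists the highest and lowest by mean TPM and any at least 4-fold apart, the nearest gene in profile, and, of transcripts, the 2 of highest share and any that differed by over 20 percentage points between libraries or tables. A listed gene that this rule names is not reported here. The genes and lists were chosen with earlier results of these data known. Alternatives were DESeq2 1.42.0, no filter, other tables, TPM with a pseudocount of 1 or 0.1, TPM rescaled over nuclear protein-coding genes, and each library left out.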

Additional observations from a re-analysis of the deposited data

How the results depend on the processing

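No paired analysis was possible because the labels give 1 group only. The number of genes more variable than genes of like abundance was 0, but 146 with no filter on low counts (21603 genes tested) and 9 as DESeq2 dispersion outliers, Ccnd1 being the 1 of the 10 genes in each, and 0 to 7 with a library left out, the 7 without replicate 2 and none of the 10 genes among them. Of the 10, 5 spanned 2-fold, against 1 to 5 with a library left out, where no share of all genes is given. On TPM, 5 were highest in replicate 2 and 0 in replicate 3, against 3 and 1, with no share of all genes given on TPM. Mean shares of D-type cyclin TPM with a library left out were 55.6% to 83.5% for Ccnd1, 1.09% to 2.43% for Ccnd2 and 15.4% to 42.0% for Ccnd3. The highest library of Cdkn1a and Rb1 became replicate 2 on TPM, and that of Ccnd3 replicate 1 on kallisto-format counts. The Cdk4-201 share was lowest in replicate 3 by RSEM and highest there by kallisto. Without replicate 1 the mean of Ccnd1 was 27.6 TPM against 144. Means of 2 of the 10 genes (Cdk4 and Rb1) moved past 1 SD with TPM rescaled over nuclear protein-coding genes, to 123 and 40.2 TPM, and the leading transcript's mean share did so for 3 in the kallisto-format tables (Cdk4-201 36.8%, Cdkn1b-201 52.4%, Rb1-201 75.3%). The causes were not tested. Depth limited little for genes, since the least abundant, Ccnd2, had 130 counts or more, but minor transcripts rested on few counts.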

Other observations

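The E2F motif spelled out in the processing summary was in none of the 10 promoter windows of these genes and in 2.27% of all 32841 windows. AP-1 (TGANTCA) was in none and in 7.81% of all. The forkhead motif GTAAACA was in 1, at -243 from the distal start of Ccnd3, and in 3.65% of all windows. The Ccnd3 transcripts that begin near that start were each at 0.80 TPM or less in every library by RSEM. An absent match says only that these letters are not in the window. The E2f1 window starts inside the annotated gene, downstream of both transcript starts. The upstream Cdkn2c window likewise starts inside its gene, downstream of the start of Cdkn2c-202. These windows therefore do not cover the sequence before those transcript starts.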
